A study of Macaca fascicularis with 12 samples.

Results

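Potassium and calcium channel subunit genes were followed in the iliac artery of 12 cynomolgus monkeys (Macaca fascicularis) whose atherosclerotic plaques differed in size. The rule goes by gene symbol and takes every array probe whose single annotated symbol starts with KCN or CACN. This gave 138 probes of 103 subunit genes, 80 for potassium and 23 for calcium channels, out of 18080 genes with a usable probe. The brightest probe stood for each gene. In 97 of them its mean lay more than 1 log2 unit above the floor of 0.111 intensity units, the lowest value kept. The other 6 genes, CACNA1S, KCNK1, KCNE1, KCNE4, KCNIP4 and KCNQ3, were near that floor and were set apart. Closest to that limit, at -2.17 on the log2 scale, were CACNA1H and KCNJ1 above it, with means of -2.11 and -2.14, and KCNIP4 and CACNA1S below it, with means of -2.26 and -2.36. Another 15 probes carried symbols of 14 RNA genes, such as antisense genes, that share the letters and are not subunits. In these, medium minus small ran from -0.68 to 0.41 log2 units, and the lowest limma adjusted p was 0.205.

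Each animal gave 1 artery and 1 array, and the animals fell into 3 groups by plaque area. Arteries of the small group (n = 4) had 0 to 0.113 mm2 of plaque, and 2 of them had none. The medium group (n = 5) had 0.30 to 0.542 mm2 and the large group (n = 3) 0.61 to 1.003 mm2. All animals were females over 20 years old, had eaten a high fat diet for 8 years, had been without ovaries for 4 years and were given no treatment, so no group on another diet or with intact ovaries was analysed here. The samples were artery biopsies, and the labels name no separation of plaque from wall. In such tissue, fewer cells of a type and less RNA per cell cannot be told apart. The array was built for human transcripts, so probes may bind the monkey's less well. Levels are therefore compared only between animals for the same probe, as log2 of an intensity scaled by the authors to a median near 1 on each array.

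Ion channels set the membrane potential of arterial smooth muscle and, through it, the tone of the vessel. Opening of potassium channels lets potassium leave the cell and moves the potential away from the range at which voltage-gated calcium channels open. Calcium that enters through L-type channels drives contraction, and calcium released from internal stores opens the large conductance calcium-activated potassium channel (BK), which acts as a brake. Voltage-gated, inwardly rectifying and two-pore potassium channels share this task. Macrophages and T cells carry potassium channels of their own. When smooth muscle cells leave the contractile state, their set of potassium channels is known to change.

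The tissue was checked with markers of the cell types it could hold. Probes of the smooth muscle genes ACTA2 and MYH11 were bright, with means of 8.38 and 8.88 log2 units over all arrays. Those of the contractile markers CNN1 and ACTG2 were dim, at -0.31 and -1.91. Brightness of different probes does not rank these genes. MYH11 read 9.25 ± 0.24, 8.58 ± 0.27 and 8.88 ± 0.10 log2 units in small, medium and large plaque arteries (mean ± SD). Summed intensity of the 10 measured contractile markers ran from 2089 to 2963 in the small, 864 to 1738 in the medium and 1106 to 1945 in the large group. For the 10 measured macrophage markers the sums ran from 70.2 to 127.3, 275.7 to 616.3 and 309.8 to 460.6 in the same order. In medium against small, 8 macrophage markers were higher and none lower, and SMTN and MYLK of the contractile markers were lower, at a limma adjusted p under 0.05. In large against small the counts were 7 macrophage markers higher and 1 contractile marker, MYLK, lower. The macrophage markers CD68 and MARCO went the other way and were not called. Their differences were -0.44 and -0.66 in medium minus small (limma adjusted p = 0.648 and 0.153). In large minus small they were -0.66 and -0.90 (limma adjusted p = 0.565 and 0.124). Endothelial markers gave 1 lower gene (ESAM) and T cell markers 2 higher genes (GZMA and CD27) in medium against small, and none in large against small. Skeletal muscle markers gave 1 lower gene (TNNT3), nerve and glia markers none, and adipocyte markers 1 higher gene (LPL, limma adjusted p = 0.0062) in medium against small. LPL was also higher in large against small (adjusted p = 0.0165) and with plaque area (adjusted p = 0.0337). Of the 7 measured adipocyte markers, 3 were near the floor and none but LPL was called, so LPL alone does not show more fat tissue. The part of these marker differences in the channel results was not tested.

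Of the 97 channel genes above the floor, 6 were lower and 2 were higher in medium than in small plaque arteries at a limma adjusted p under 0.05. Those lower were KCNA5, KCNB2, KCNAB1, KCNJ16, KCNMA1 and KCNMB4, and those higher were KCNE3 and KCNQ1. All 8 are potassium channel genes. Of these, KCNJ16 counts as above the floor only through its small plaque arteries, as its values below show. The shares were 6.19% lower and 2.06% higher, against 1.73% and 4.05% of all 16024 genes above the floor. At an unadjusted p under 0.05 the counts were 24 lower (24.7%, against 11.2% of all genes) and 4 higher (4.12%, against 13.3%). The difference was below 0 in 66 of the 97 genes (68.0%, against 50.9% of all genes), with a median of -0.15 against -0.01 over all genes. The count of 8 called genes fell to 3 without medium replicate 4, to 4 without small replicate 2 or small replicate 3, and to 5 without small replicate 4, medium replicate 1 or medium replicate 5. It was 2 when small replicate 4 and medium replicate 5 were left out together. They were left out together since their identity numbers in the labels lie apart from those of the other 10. Calls over all probes tested fell too, from 1693 to 972 without medium replicate 4 and 847 without small replicate 2. They were 1542 without small replicate 3, 1455 without small replicate 4, 958 without medium replicate 1 and 1011 without medium replicate 5. Without both small replicate 4 and medium replicate 5 they were 773.

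In large against small, which uses the same 4 small plaque arteries, KCNA5 was the 1 gene called lower (1.03%, against 0.268% of all genes) and none was called higher (2.14% of all genes). At an unadjusted p under 0.05, 17 genes were lower (17.5%, against 10.1%) and 3 higher (3.09%, against 12.2%). The difference was below 0 in 72 of 97 genes (74.2%, against 54.3%), and its median was -0.21 against -0.05 over all genes. Without 1 animal the count of called genes ran from 0 to 5. It was 5 without small replicate 1, 3 without medium replicate 1, and 0 without any 1 of small replicates 2, 3 and 4, medium replicates 2 and 5, and the 3 large replicates. Calls over all probes tested were 617 with all animals, 1216 without small replicate 1 and 860 without medium replicate 1. They were 112 to 609 without any 1 of the animals whose removal left no channel gene called. None of the 6 genes near the floor was called in either comparison.

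**Figure D1:**
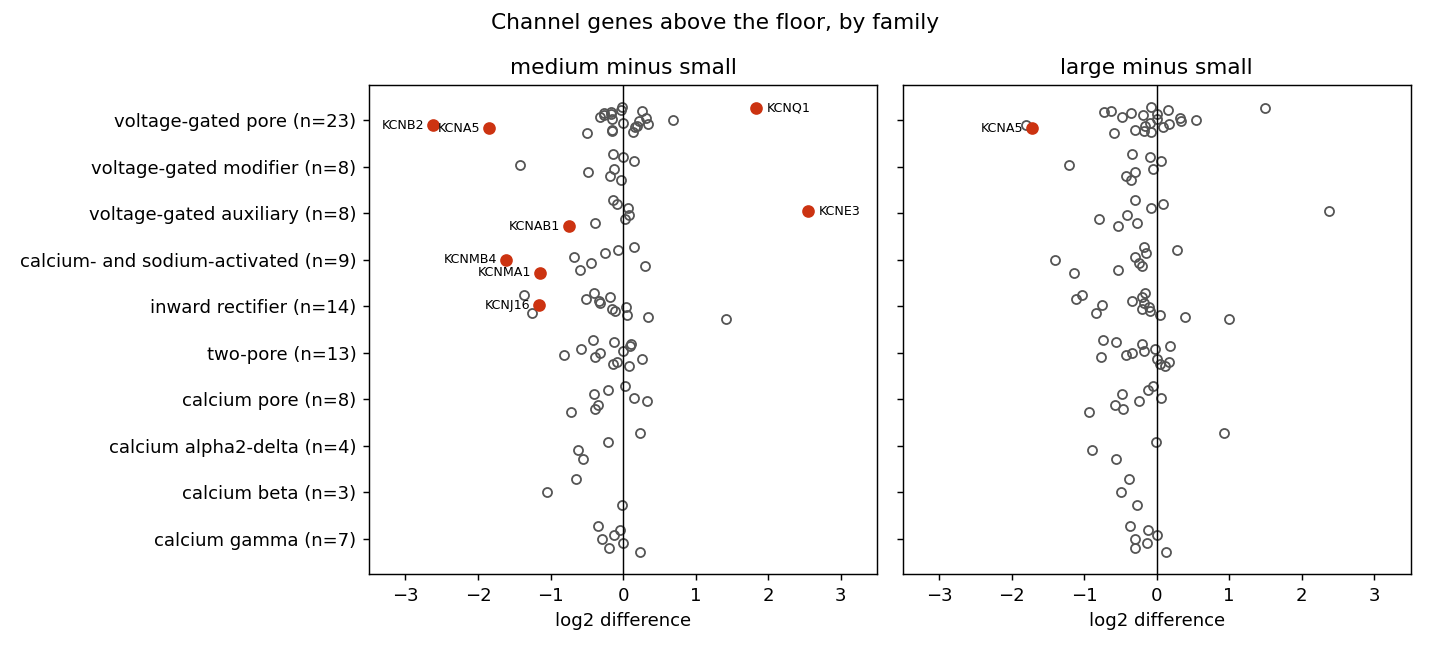
Log2 difference of each channel gene above the floor, by family (rows), in medium minus small (left) and large minus small (right). Each circle is the brightest probe of 1 gene, and filled red circles with names passed a limma adjusted p of 0.05. In the left panel 6 named genes lie below 0 and KCNQ1 and KCNE3 above it. In the right panel KCNA5 is the 1 named gene.

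All 8 medium and large plaque arteries lay below all 4 small ones in 8 of 97 channel genes (8.25%, against 3.49% of all genes). These were KCNA5, KCNMA1, KCNMB4, KCNAB1, KCNJ4, CACNA2D1, CACNA2D2 and CACNB3, of which KCNJ4 is named for this pattern after its values were seen. The reverse order held in 1 gene, KCNE3 (1.03%, against 5.29% of all genes). Both counts go by the brightest probe of each gene. The dimmer probes of CACNA2D1 and CACNB3 did not put all 8 arteries below the 4, nor did every KCNMA1 probe.

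Among the voltage-gated pore genes, 23 lay above the floor. Of these, 2 were lower and 1 higher in medium than in small (against 1.73% and 4.05% of all genes). The family median of the difference was -0.03, against -0.01 over all genes. KCNA5 encodes the pore of Kv1.5, a delayed rectifier of arterial smooth muscle that is also found in macrophages. Its log2 intensity was 5.91, 6.39, 6.71 and 6.52 in the small, 3.44, 4.92, 5.22, 4.23 and 4.85 in the medium and 4.61, 4.89 and 4.48 in the large plaque arteries. Every artery of the medium and large groups lay below every small one, and medium replicate 1 was lowest. Medium minus small was -1.85 ± 0.32 (SE) with a limma adjusted p of 0.0107, so the signal was 0.277 times that of the small group. Differences are given ± SE throughout, with the limma adjusted p over all tested probes in parentheses. Large minus small was -1.72 ± 0.37 (adjusted p = 0.0475, 0.303 times). The medium against small call held with each animal left out, with differences from -2.02 to -1.58 and a highest adjusted p of 0.0347. The large against small call was lost without any 1 of 9 animals, namely small replicates 2, 3 and 4, medium replicates 2, 4 and 5 and the 3 large replicates, with adjusted p from 0.0572 to 0.184.

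KCNB2, the pore of Kv2.2, had the largest fall of the called genes in medium against small. It read 3.52, 3.14, 5.08 and 3.92 in small, 0.31, 0.51, 2.21, 1.31 and 2.13 in medium and 2.10, 3.17 and 1.05 in large plaque arteries. The medium values all lay below the small ones, but large replicate 2 reached into the small range. The difference was -2.62 ± 0.54 in medium minus small (adjusted p = 0.0234, 0.163 times) and -1.81 ± 0.61 in large minus small (adjusted p = 0.175). Without small replicate 3, medium replicate 1 or medium replicate 4 the adjusted p of medium against small was 0.0523 to 0.0559.

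The 11 auxiliary genes of voltage-gated channels had 8 above the floor. Of these, 1 was lower and 1 higher in medium than in small (against 1.73% and 4.05% of all genes). KCNAB1 encodes a cytosolic beta subunit that binds Kv1 pores and speeds their inactivation. Its values were 0.07, 0.14, 0.06 and 0.73 in small, -0.58, -0.42, -0.23, -0.63 and -0.62 in medium and -0.10, -0.22 and -0.52 in large plaque arteries. All 8 lay below the 4 small ones, and small replicate 4 stood above the other 3. Medium minus small was -0.75 ± 0.18 (adjusted p = 0.048, 0.596 times) and large minus small -0.53 ± 0.21 (0.238). This call lay at the threshold, since leaving out any animal but medium replicate 3 gave an adjusted p of 0.0519 to 0.108. KCNAB2, the related beta subunit, differed by -0.38 ± 0.38 in medium minus small (adjusted p = 0.647).

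The genes called higher in medium than in small plaque arteries encode known partners of 1 channel complex. Whether both are made in the same cells of these biopsies was not tested. KCNQ1 is the pore of Kv7.1, and KCNE3 is a single-pass subunit that binds it and is known to hold it open. KCNE3 read -0.03, -2.43, -0.95 and -1.07 in small, 1.40, 0.75, 1.13, 2.45 and 1.43 in medium and 1.30, 0.67 and 1.78 in large plaque arteries. The highest small value, in replicate 1, lay below every medium and large value, and small replicate 2 was the lowest. The difference was 2.55 ± 0.45 in medium minus small (adjusted p = 0.0116, a signal 5.87 times as high) and 2.37 ± 0.51 in large minus small (adjusted p = 0.0502, 5.17 times). With each animal left out in turn the medium against small difference ran from 2.12 to 2.92 and its highest adjusted p was 0.0287. It was 0.0579 without both small replicate 4 and medium replicate 5.

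KCNQ1 read 1.10, 0.03, -0.06 and 0.18 in small, 1.32, 1.98, 3.05, 2.76 and 1.61 in medium and 2.22, 1.06 and 2.14 in large plaque arteries. All medium values lay above the small ones, and large replicate 2 lay just under the highest small value. Medium minus small was 1.83 ± 0.40 (adjusted p = 0.0294, 3.55 times) and large minus small 1.49 ± 0.45 (0.132, 2.81 times). Without small replicate 2, 3 or 4 or medium replicate 4 the adjusted p of medium against small was 0.0614 to 0.0812. The 10 macrophage markers, of which 8 were higher in medium and 7 in large than in small, had mean log2 intensities of 1.28 to 2.39 in small, 4.09 to 5.03 in medium and 4.08 to 4.75 in large plaque arteries. Their part in the KCNE3 and KCNQ1 differences was not tested. KCNQ5, another Kv7 pore of arteries, differed by -0.01 ± 0.23 in medium minus small, with a 95% interval from -0.50 to 0.49. A dimmer KCNQ5 probe gave -0.43 and was not called.

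**Figure D2:**
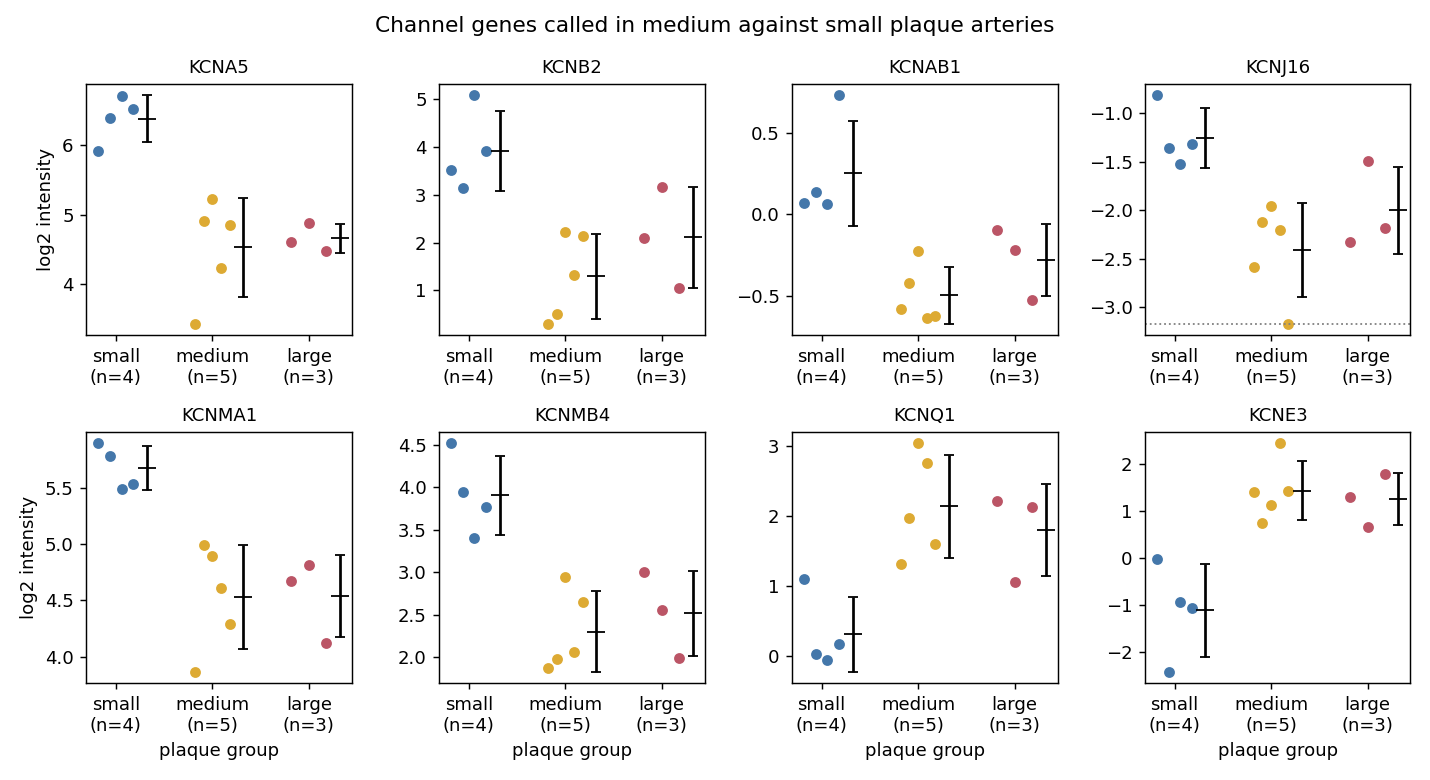
Log2 intensity (vertical axes) of the 8 channel genes that passed in medium against small, by plaque group (small n = 4, medium n = 5, large n = 3). Each dot is 1 artery, the black bar is the mean ± SD, and the dotted line, where drawn, is the floor. The small group has the highest mean in the first 6 panels and the lowest for KCNQ1 and KCNE3, and single large plaque arteries reach the small range for KCNB2, KCNJ16 and KCNQ1.

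Other voltage-gated genes named for their known place in arteries or their size of change did not pass. KCNA3, the Kv1.3 pore of T cells, macrophages and proliferating smooth muscle, differed by -0.16 ± 0.15 in medium minus small, with a 95% interval from -0.49 to 0.17. KCND1, the transient Kv4.1 pore, had a difference of 0.69 ± 0.23 (adjusted p = 0.135). KCNS2, a silent subunit that modifies Kv2 channels, had the lowest value of the 8 modifier genes, -1.43 ± 0.48 (adjusted p = 0.137). In that family none was called. Differences were below 0 in 6 of 8 in medium minus small (against 50.9% of all genes) and 7 of 8 in large minus small (against 54.3%).

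Of the 9 calcium- and sodium-activated genes, 7 had differences below 0 in medium minus small (against 50.9% of all genes), with a median of -0.44. In this family 2 were called lower in medium than in small (22.2%, against 1.73% of all genes). Both called genes belong to the BK channel. KCNMA1 encodes its pore, which opens with voltage and calcium and is abundant in arterial smooth muscle. The brightest KCNMA1 probe read 5.90, 5.78, 5.48 and 5.54 in small, 3.87, 4.99, 4.90, 4.61 and 4.29 in medium and 4.67, 4.81 and 4.12 in large plaque arteries. The 8 arteries with medium or large plaques were all lower than the 4 with small ones. In medium minus small this gave -1.14 ± 0.24 (adjusted p = 0.0269, 0.453 times) and large minus small -1.14 ± 0.28 (0.0701, 0.454 times). Without small replicate 1 or 2 or medium replicate 4 or 5, the adjusted p of medium against small was 0.0552 to 0.0743.

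The array carried 5 KCNMA1 probes, which were not alike. The second by brightness read 5.50, 5.75, 5.09 and 5.54 in small, 2.29, 4.53, 3.43, 2.39 and 2.86 in medium and 3.20, 4.26 and 3.03 in large plaque arteries. It also put all 8 below the small group, and its difference of -2.37 ± 0.42 in medium minus small was larger than that of the brightest probe (adjusted p = 0.0119, 0.193 times). In large minus small it was -1.97 ± 0.48 (0.0703). The third probe gave 0.07 ± 0.23 in medium minus small (0.908), the fourth -0.79 ± 0.20 (0.0598) and the fifth -0.82 ± 0.35 (0.235). Thus 2 of 5 probes passed, 4 were below 0 and 1 was near 0, and which transcripts each probe detects is not given in the sources used here.

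KCNMB4 encodes the beta4 subunit of BK, best known from the brain. Its brighter probe read 4.52, 3.94, 3.40 and 3.77 in small, 1.86, 1.97, 2.95, 2.06 and 2.65 in medium and 3.00, 2.55 and 1.99 in large plaque arteries. No medium or large value reached the small range. The difference was -1.61 ± 0.30 in medium minus small (adjusted p = 0.0148, 0.327 times) and -1.40 ± 0.34 in large minus small (0.071). Its dimmer probe gave -1.03 ± 0.28 (0.0695) and -1.28 ± 0.32 (0.0736). With each animal left out the medium against small call of the brighter probe held, at a highest adjusted p of 0.0443.

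KCNMB1 encodes beta1, the subunit that raises the calcium sensitivity of BK in smooth muscle. It read 5.04, 4.83, 5.62 and 5.13 in small, 4.00, 4.66, 4.97, 4.51 and 4.65 in medium and 4.56, 4.73 and 4.56 in large plaque arteries. The groups overlapped through medium replicate 3. Medium minus small was -0.60 ± 0.21 with a 95% interval from -1.06 to -0.13 (adjusted p = 0.16), and large minus small -0.54 ± 0.24 (0.304), so neither passed. The small conductance channel gene KCNN3 differed by -0.25 ± 0.15 in medium minus small (adjusted p = 0.416). A dimmer KCNN3 probe went the other way, at 0.63, and was not called. KCNN4, the intermediate conductance channel of leukocytes, endothelium and proliferating smooth muscle, differed by -0.07 ± 0.28 in medium minus small, with an interval from -0.68 to 0.53, and by 0.28 ± 0.31 in large minus small.

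**Figure D3:**
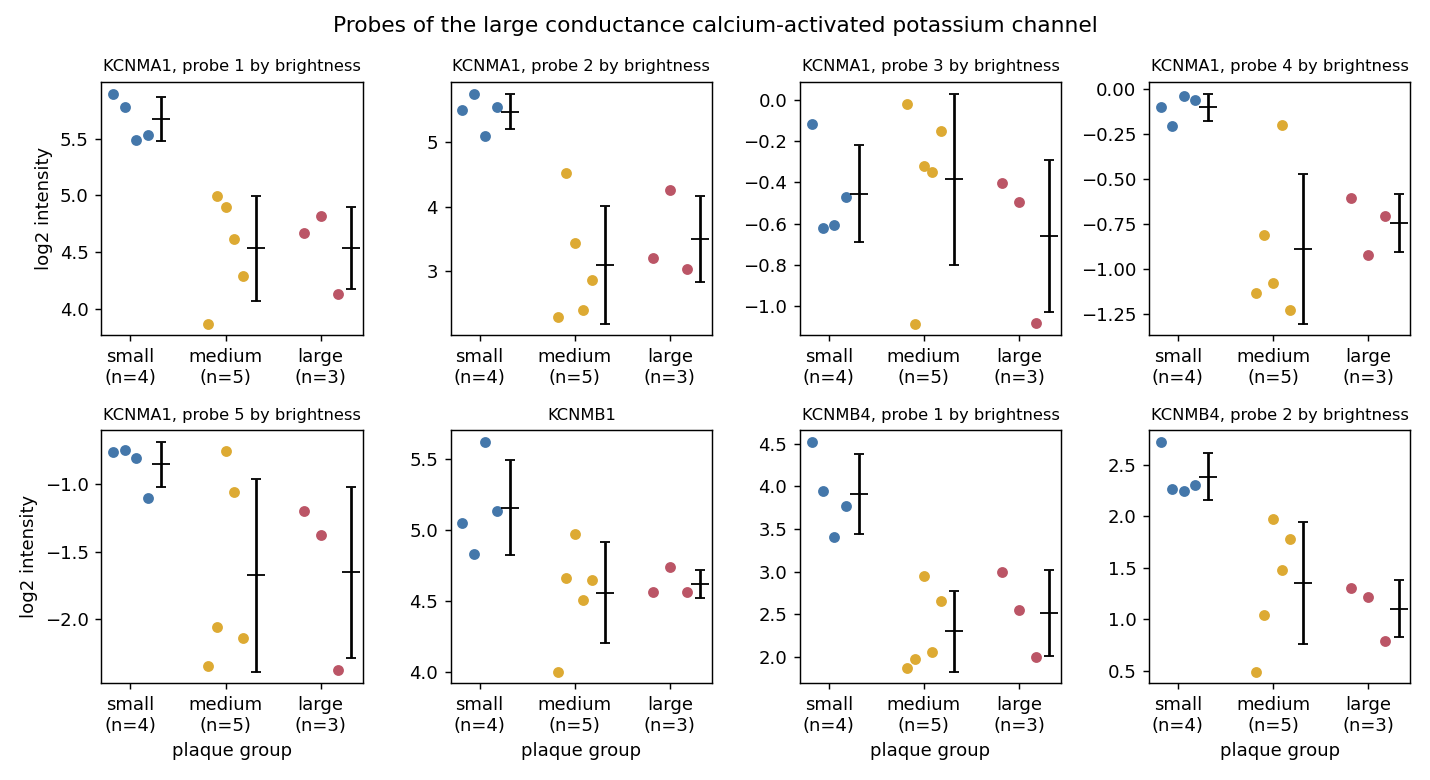
Log2 intensity (vertical axes) of the BK channel probes by plaque group (small n = 4, medium n = 5, large n = 3). Each dot is 1 artery and the black bar is the mean ± SD. The 2 brightest KCNMA1 probes and both KCNMB4 probes show all medium and large plaque arteries below the small ones, and the third KCNMA1 probe shows the groups mixed.

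Inward rectifiers numbered 14, all above the floor. KCNJ16 was the 1 called, lower in medium than in small (7.14%, against 1.73% of all genes). In medium minus small 10 of 14 differences were below 0 (against 50.9% of all genes), with a median of -0.25. KCNJ16 encodes Kir5.1, which forms mixed channels with other Kir pores. This dim probe read -0.81, -1.36, -1.53 and -1.31 in small, -2.59, -2.13, -1.95, -2.21 and -3.17 in medium and -2.33, -1.49 and -2.19 in large plaque arteries. Medium replicate 5 was at the floor, which understates the fall, and large replicate 2 lay within the small range. Medium minus small was -1.16 ± 0.27 (adjusted p = 0.0406, 0.449 times) and large minus small -0.75 ± 0.31 (0.262). The call was lost without any animal but medium replicate 3 or large replicate 2, at adjusted p from 0.0502 to 0.0953.

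KCNJ8 encodes Kir6.1, the pore of the vascular ATP-sensitive channel, which links vessel tone to metabolism. It read 4.05, 4.22, 3.73 and 4.31 in small, 2.00, 3.94, 3.20, 1.81 and 2.63 in medium and 3.00, 3.43 and 2.74 in large plaque arteries. Medium replicates 1 and 4 were lowest, and medium replicate 2 lay within the small range. The difference was -1.36 ± 0.38 in medium minus small and -1.02 ± 0.43 in large minus small, with adjusted p of 0.0777 and 0.271, so neither passed. Its regulatory partner ABCC9, the SUR2 subunit, differed by 0.07 ± 0.22 in medium minus small (adjusted p = 0.905). KCNJ11, the Kir6.2 pore of the same channel type, differed by 0.06 ± 0.13, with a 95% interval from -0.23 to 0.35.

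KCNJ12, the Kir2.2 pore, had -1.26 ± 0.35 in medium minus small (adjusted p = 0.0764). This value is uncertain as to its gene, because KCNJ12 has a near-identical copy, KCNJ18. KCNJ2, the Kir2.1 pore of resistance arteries, differed by -0.32 ± 0.24 (0.524). KCNJ5, the Kir3.4 pore that G proteins open, differed by -0.51 ± 0.35 in medium minus small (0.478) and -1.11 ± 0.40 in large minus small (0.198). KCNJ1, the renal Kir1.1 pore, had the highest difference of its family in medium minus small, 1.41 ± 0.43 (0.104), but 3 of its 4 small values were at the floor. It counts as above the floor only through its medium and large values. KCNJ10, the Kir4.1 pore with which Kir5.1 pairs, differed by 0.34 ± 0.27 in medium minus small (0.544) and 0.39 ± 0.31 in large minus small (0.575). None of these 5 genes passed.

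The two-pore genes, which carry background potassium current, gave no call among the 13 above the floor. Their differences in medium minus small ran from -0.81 to 0.26, and 9 of 13 were below 0 (against 50.9% of all genes). KCNK3, the acid-sensitive TASK-1, differed by -0.58 ± 0.23 in medium minus small (adjusted p = 0.199) and by -0.02 ± 0.26 in large minus small. KCNK6 and KCNK5, both present in vascular tissue, differed by 0.11 ± 0.18 and 0.10 ± 0.33 in medium minus small, with 95% intervals from -0.28 to 0.50 and from -0.62 to 0.83.

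No calcium channel gene passed limma's adjusted threshold in any comparison. Of the 22 above the floor, 16 had differences below 0 in medium minus small (72.7%, against 50.9% of all genes), with a median of -0.21. In large minus small there were 18 (81.8%, against 54.3%), with a median of -0.28. At an unadjusted p under 0.05, 7 were lower in medium against small (31.8%, against 11.2% of all genes) and none higher (13.3% of all genes). In large against small 4 were lower (18.2%, against 10.1%) and 1 higher (4.55%, against 12.2%). Below 0 in medium minus small were 5 of 8 pore genes, 3 of 4 alpha2-delta genes, all 3 beta genes and 5 of 7 gamma genes. The gamma genes ran from -0.35 to 0.24 in medium minus small. All these counts use the brightest probe of each gene. Among the genes counted below 0 in medium minus small, CACNA1C, CACNA2D3 and CACNG2 each had another probe above 0. CACNA1C is also among the 7 lower at an unadjusted p under 0.05.

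CACNA1C encodes Cav1.2, the L-type pore through which most calcium enters contracting arterial muscle. Its brightest probe read 3.84, 3.53, 4.20 and 3.84 in small, 3.43, 3.36, 3.89, 3.29 and 3.37 in medium and 3.33, 3.41 and 3.43 in large plaque arteries. All 3 large values and 4 of 5 medium values lay below the small range, and medium replicate 3 lay inside it. The medium minus small difference was -0.39 ± 0.18 with a 95% interval from -0.77 to -0.01 (adjusted p = 0.266), and large minus small -0.46 ± 0.20 (0.282).

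The 4 CACNA1C probes disagreed in direction. The second by brightness read 1.92, 2.02, 2.51 and 2.28 in small, 2.90, 2.83, 3.23, 3.99 and 3.13 in medium and 2.55, 2.51 and 3.28 in large plaque arteries. All medium values were above all small ones, and large replicates 1 and 2 lay at or next to the highest small value. Its medium minus small difference was 1.03 ± 0.26 (adjusted p = 0.0525), against -0.02 ± 0.14 (0.96) for the third probe and -1.48 ± 0.42 (0.0831) for the fourth. No direction can be given for CACNA1C as a gene. Of the 20 channel genes with several probes above the floor, 8 had probes of opposite sign in medium minus small, and in 2, KCNMA1 and KCNMB4, some probes passed and others did not.

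Of the other pores, CACNA1D, an L-type channel, differed by -0.35 ± 0.38 in medium minus small (adjusted p = 0.676). The T-type pores CACNA1G and CACNA1H differed by -0.41 ± 0.27 (0.456) and -0.21 ± 0.34 (0.789).

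The alpha2-delta and beta subunits bring the pore to the membrane and tune its gating. CACNA2D2 read 4.28, 4.65, 5.01 and 4.47 in small, 3.58, 4.05, 4.10, 4.10 and 4.05 in medium and 3.72, 3.86 and 3.53 in large plaque arteries. No value of the 8 reached the small range, and the differences were -0.62 ± 0.18 in medium minus small (0.0931) and -0.90 ± 0.21 in large minus small (0.0626). CACNA2D1 also had the 8 arteries below the 4, with -0.55 ± 0.20 (0.171) and -0.55 ± 0.23 (0.259). The dimmer CACNA2D1 probe gave -0.64 in medium minus small, but its groups overlapped. CACNA2D4 had the highest difference of the calcium channel genes in large minus small. It read 1.85, 1.59, 2.20 and 1.83 in small, 2.62, 1.91, 2.22, 1.96 and 1.77 in medium and 3.02, 2.40 and 2.97 in large plaque arteries, and all 3 large values lay above the small range. Large minus small was 0.93 ± 0.24 (0.0882) and large minus medium 0.70 ± 0.23 (0.903).

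CACNB2, a beta subunit that pairs with Cav1.2 in muscle, read 5.20, 5.50, 4.42 and 4.89 in small, 4.04, 4.85, 4.02, 2.90 and 3.99 in medium and 4.08, 5.22 and 4.24 in large plaque arteries. The groups overlapped, and medium replicate 4 was lowest. Its difference was -1.04 ± 0.37 in medium minus small (0.158). CACNB3, a beta subunit of smooth muscle, read 3.82, 3.37, 3.06 and 3.32 in small, 2.93, 2.66, 3.02, 2.35 and 2.77 in medium and 3.04, 2.94 and 3.05 in large plaque arteries. Here the 8 arteries all lay below the 4, by a narrow margin. The differences were -0.65 ± 0.19 in medium minus small (0.0875) and -0.38 ± 0.21 in large minus small (0.405). The dimmer CACNB3 probe gave -0.02 in medium minus small, and its small and medium values overlapped.

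**Figure D4:**
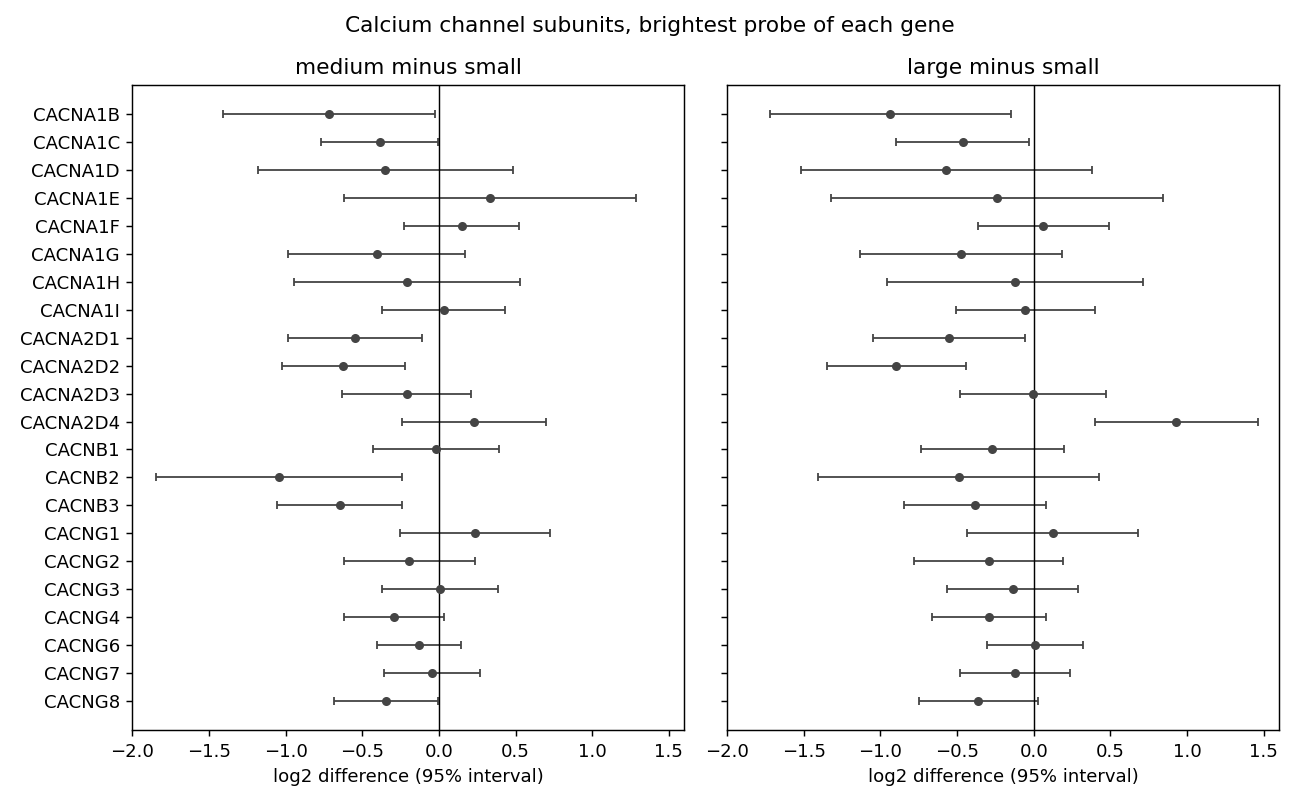
Log2 difference (horizontal axes) of the 22 calcium channel genes above the floor, in medium minus small (left) and large minus small (right). Each point is the brightest probe of 1 gene and the bar is its 95% interval from the limma fit. Most points lie left of 0, and none passed an adjusted p of 0.05.

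Contractile markers were lower in the same arteries, so the channel genes were also expressed relative to them. The mean log2 intensity of the 10 measured markers ran from 5.75 to 6.13 in small, 4.28 to 5.35 in medium and 4.83 to 5.56 in large plaque arteries. Subtracting it from each array, an alternative chosen after the data were seen, shifts every gene up by 1.09 in medium minus small and by 0.83 in large minus small. A value near 0 on this scale means a change like that of the contractile markers. On it, KCNMA1 differed by -0.06 ± 0.34 in medium minus small (limma adjusted p = 0.879), KCNMB4 by -0.52 ± 0.37 (0.195), KCNJ16 by -0.07 ± 0.35 (0.856) and KCNAB1 by 0.34 ± 0.35 (0.366). None of these 4 passed on this scale, and their errors leave room for change either way. KCNJ8 and CACNB2 lay at -0.27 ± 0.35 (0.465) and 0.04 ± 0.36 (0.91).

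On this scale the shift alone puts most genes past the threshold. In medium against small, 59 of the 97 channel genes were higher (60.8%, against 71.4% of all genes above the floor) and 1 was lower (1.03%, against 0.218%). So many calls also loosen the adjustment of p, so adjusted p here cannot be set against those of the deposited scale. The gene called lower was KCNB2, at -1.53 ± 0.45 (adjusted p = 0.00978), a smaller difference than -2.62 ± 0.54 on the deposited scale, and KCNA5 lay at -0.76 ± 0.35 (0.0593), which missed the threshold. In large minus small KCNA5 was -0.89 ± 0.40 (0.126) relative to the same markers. For genes that were already higher, such as KCNE3 and KCNQ1, this scale can only add to the difference, so it gives no further test of them.

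Between the large and medium plaque groups no channel gene was called by limma, as was the case for all genes (0% called). At an unadjusted p under 0.05, 2 channel genes were lower and 2 higher (2.06% each way, against 2.37% lower and 2.48% higher of all genes). Differences ran from -0.89 to 0.81 log2 units, with a median of -0.05, against -0.03 over all genes. KCNA5 differed by 0.13 ± 0.35 in large minus medium, with a 95% interval from -0.64 to 0.89. For the brightest KCNMA1 probe the value was 0.00 ± 0.27 with an interval from -0.57 to 0.58, and for KCNE3 -0.18 ± 0.49 with an interval from -1.25 to 0.89. Each interval leaves room for a change of a fair size in either direction.

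Plaque area as a number gave no called channel gene (1.21% of all genes were called). At an unadjusted p under 0.05, 16 of 97 slopes were below 0 (16.5%, against 10.1% of all genes) and 3 above (3.09%, against 12.2%). The median slope was -0.24 log2 units per mm2, against -0.04 over all genes. KCNE3 had the lowest adjusted p, with a slope of 3.31 ± 0.75 per mm2 (0.0632), followed by CACNA2D2 at -1.09 ± 0.26 (0.0683). KCNA5 and KCNMA1 had slopes of -2.27 ± 0.58 (0.0838) and -1.49 ± 0.39 (0.0899). For both genes the medium and large groups overlapped each other, and both lay below the small group. Without medium replicate 1 the count of called channel slopes was 3, and without large replicate 1 it was 1. Over all probes tested, 314 slopes were called, 746 without medium replicate 1 and 353 without large replicate 1.

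**Figure D5:**
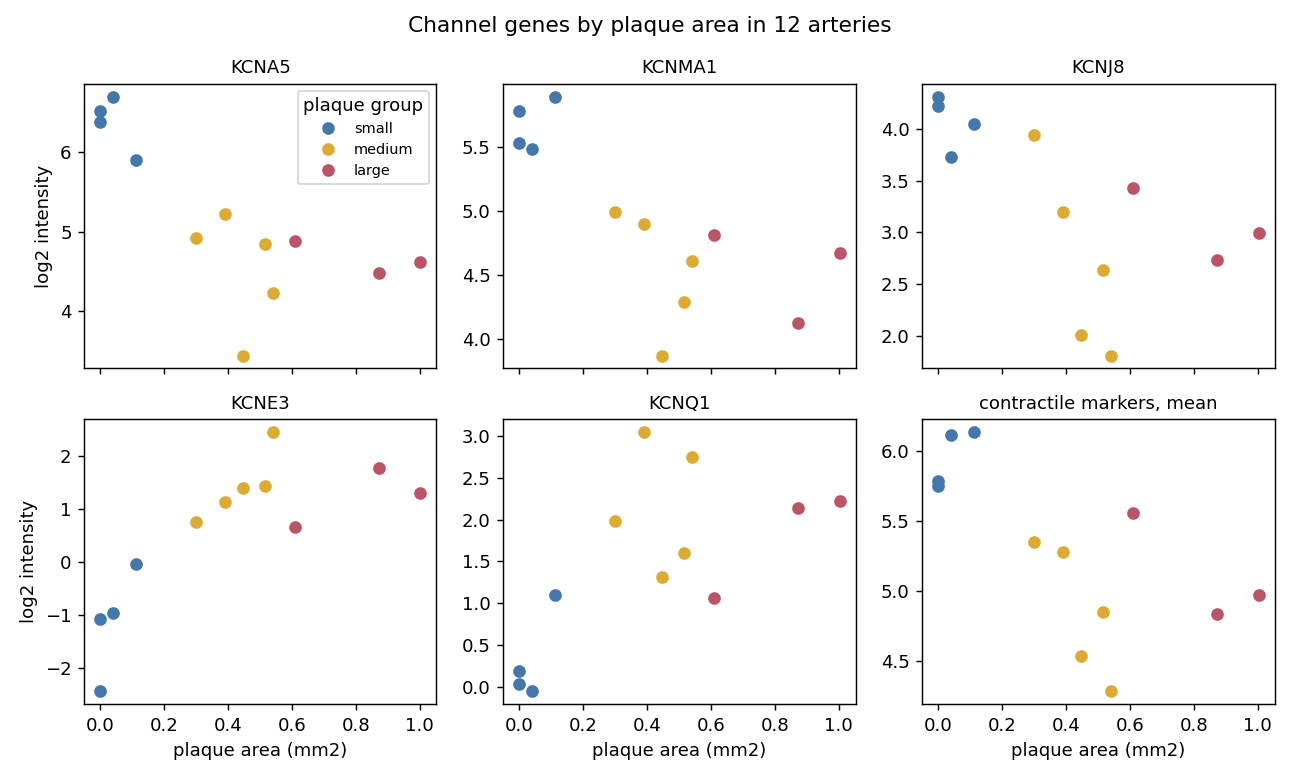
Log2 intensity (vertical axes) against plaque area in mm2 (horizontal axes) for 5 channel genes and, in the last panel, the mean of the contractile markers. Each dot is 1 artery, coloured by plaque group. The 4 small plaque arteries stand apart from the other 8 for KCNA5, KCNMA1, KCNE3 and the contractile marker mean. The medium and large plaque arteries overlap in all 6 panels.

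The pathway's other genes, which store, release and clear calcium or carry other membrane currents, were counted from a list of 36, of which 31 were measured. In medium against small, ATP2B4, a pump that exports calcium, was higher by 1.22 ± 0.27 (adjusted p = 0.0315), and STIM1, the sensor of calcium stores, was lower at -0.90 ± 0.19 (0.0234). This is 1 of 31 genes each way, against 4.05% higher and 1.73% lower of all genes above the floor. In large against small none passed, against 2.14% higher and 0.268% lower of all genes. The medians were -0.05 and -0.13 in medium and large minus small. PLN, which restrains the calcium pump of the stores, differed by -1.44 ± 0.46 in medium minus small (0.119). ATP2A3, a store pump, differed by -0.86 ± 0.22 (0.0533), and ITPR2, a store release channel, by 0.75 ± 0.19 (0.0594). RYR2, the ryanodine receptor, differed by -0.89 ± 0.53 (0.406) and ORAI1, the pore that STIM1 opens, by -0.52 ± 0.28 (0.356).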

How the data were processed

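Iliac artery RNA of 12 monkeys was measured with 1 array each. Per the labels' protocols, biotin-labelled cRNA made from total RNA was put on CodeLink human arrays, 1 dye each. The deposited table holds a linear intensity for each probe. The authors had subtracted background and scaled each array to a median near 1, as the values show (some lie below 0). How they did so, and with which software, is not given in the sources used here. Array medians ran from 1.00 to 1.01, and arrays correlated with r of 0.918 to 0.972, over probes and not over independent replicates. The number of arrays limits the precision.

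Before log2, intensities were raised to at least 0.111, the 5th percentile of those above 0, which touched 5.45% of values. A difference from a value at this floor is understated. Of 54359 probes, 479 were empty and 53877, measured in 2 or more animals per group, were tested. Each was fitted with limma 3.58.1 in R 4.3.3 (lmFit with 3 group means over all 12 arrays, eBayes). Plaque area in mm2 was fitted apart, with no plaque as 0. Two-sided p-values were adjusted over all probes tested (Benjamini-Hochberg). A gene passed, or was called, at an adjusted p under 0.05. Adjusted p in parentheses comes from this fit. The script was tested on simulated data. A gene's level is that of its brightest probe with values on all arrays, and a probe under 1 log2 unit above the floor counted as near it. Symbols came from the platform annotation, which can be old. All 103 subunit symbols are in the macaque annotation T2T-MFA8v1.1. Of 157 channel probes, 3 with several symbols and 1 with too few values were not used.

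The members and lists were chosen with earlier results of these data known. Genes named were those called, the 6 with the largest differences each way against small, all probes of KCNMA1, and a list of 32 arterial channels, 27 of them measured. Alternatives were quantile normalization, other floors, log2(value + 0.5), a filter on dim or incomplete probes, any probe of a gene, a variance trend, array weights, only the groups compared, the square root of area, the replicate number as a block, animals left out, and values relative to contractile markers.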

Additional observations from a re-analysis of the deposited data

Results flagged for a closer look

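Among 74 groups of the named channel genes that held 4 or 5 arteries, 9 had 1 artery far from the others by Dixon's test, where chance gives about 1 in 20. The calcium channel genes gave 3 such arteries, all in the medium group. CACNA1C was high in medium replicate 3, at 3.89 log2 units against 3.29 to 3.43 in the other 4. CACNA1D was high in medium replicate 2, at 2.11 against 0.78 to 1.16. CACNA2D2 was low in medium replicate 1, at 3.58 against 4.05 to 4.10.

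The potassium channel genes gave 6. KCNAB1, a called gene, was high in small replicate 4, at 0.73 against 0.06 to 0.14 in the other 3, and KCNK3 was high in small replicate 3, at 1.85 against 0.92 to 1.04. KCNC1, a voltage-gated pore gene, was low in medium replicate 1, at -0.043 against 0.15 to 0.21. The other 3 touch the floor of -3.17. KCNK5 was at the floor in small replicate 1, against -1.64 to -1.41 in the other 3. KCNE4 was at the floor in medium replicate 2, against -2.32 to -2.02. KCNJ1 was at -2.41 in small replicate 2, and the other 3 small plaque arteries were at the floor.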

How the results depend on the processing

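The direction of the 8 genes called in medium against small, and of KCNA5 in large against small, held in all 207 values recomputed under 23 alternatives other than the contractile marker scale, and the call held in 142. Of 1493 values of the other named genes and comparisons, 26 newly passed and 37 turned sign without passing. The medium against small call of KCNA5 held in all 23, of KCNE3 and KCNMB4 in 22, of KCNB2, KCNMA1 and KCNQ1 in 17, of KCNAB1 in 8 and of KCNJ16 in 6. KCNA5 in large against small held in 10. The count of called genes in medium against small (8) was 2 without both small replicate 4 and medium replicate 5, and 3 to 8 with 1 animal left out. Relative to contractile markers, where every gene shifts up by 1.09, it was 64 of all 103 (63 higher and 1 lower). On this scale that is 61.2% higher and 0.971% lower, against 63% and 0.0928% of all probes tested. There, by construction, any difference between -1.09 and 0 turns sign, which 18 of 37 named genes did: KCNAB1, called as deposited, lay at 0.34, and KCNA3 (0.93), KCNN3 (0.84), KCNN4 (1.01) and KCNQ5 (1.08) passed. The count in large against small (1) was 0 with quantile normalization, a floor at the 1st percentile or without both animals. It was 2 with a floor at the 10th percentile, 6 with log2(value + 0.5) and 3 with dim probes removed or array weights. It was 5 with a variance trend or relative to contractile markers, and 0 to 5 with 1 animal left out. Over all probes tested, 617 were called. This became 605 with quantile normalization, 436 with the 1st percentile floor, 316 without both animals and 873 with the 10th percentile floor. It became 1227 with log2(value + 0.5), 948 with dim probes removed, 1254 with array weights and 1107 with a variance trend. Relative to contractile markers it was 5602, and 112 to 1216 with 1 animal left out. Called channel slopes (0) were 3 with log2(value + 0.5), 2 with dim probes removed or a variance trend and 5 on the square root of area. They were 12 relative to contractile markers and 0 to 3 with 1 animal left out. Over all probes tested, 314 slopes were called, 866 with log2(value + 0.5), 656 with dim probes removed and 778 with a variance trend. The square root of area gave 1586, the contractile marker scale 10936, and leaving out 1 animal 0 to 746. The channel count in large against medium stayed at 0 in every alternative. With the replicate number as a block the channel counts were 2, 1, 0 and 0, against 866, 448, 0 and 0 of all probes. The order is medium against small, large against small, large against medium and the slope. The 1 in large against small was KCNE3, higher, and KCNA5 no longer passed. The replicate numbers name different animals, and whether same-numbered arteries share anything else was not tested. Deviations of same-numbered arteries from different groups correlated at a median r of 0.08 (-0.16 to 0.22, 10 pairs). For differently numbered arteries the median r was -0.02 (-0.20 to 0.23, 37 pairs). The cause of these changes was not tested. With 3 to 5 animals a group and 6 genes near the floor, small differences were not detectable.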
